A study of Salmo trutta with 45 samples.

Results

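The MAP kinase interacting kinases, or MNKs, are serine/threonine kinases that act below the ERK and p38 MAP kinases. Once activated they dock on the scaffold protein eIF4G and phosphorylate eIF4E, the protein that binds the cap of mRNAs at the start of translation. In mammals MNK2 keeps a high basal activity, whereas MNK1 responds more strongly to ERK and p38 signals, which in many tissues, liver included, carry growth factor, cytokine and stress responses. Zebrafish have mknk1 and a pair of mknk2 paralogs, mknk2a and mknk2b. RNA levels were measured here, not kinase activity.

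The brown trout liver transcriptome was assembled without a genome, so a gene is represented by assembled transcripts named by component and sequence number. All transcripts were taken whose annotation named a MAP kinase interacting kinase, together with those matched to zebrafish mknk2b. This gave 6 of the 67093 transcripts listed, in 4 of 20387 components and for 3 zebrafish genes. The gene mknk1 (ENSDARG00000018411) had 2 transcripts, comp118684_c3_seq1 and comp118684_c5_seq1. The gene mknk2b (ENSDARG00000015164) had 3, namely comp125517_c0_seq1, comp125517_c0_seq16 and comp125517_c0_seq19, and mknk2a (ENSDARG00000011373) had 1, comp107370_c0_seq1. All 6 were listed for every comparison and passed the filter on low counts, with 23 to 990 reads each in a fish. The family was picked because mknk1 and mknk2b had been called against controls in earlier analyses of these same fish. Their differences from controls are therefore given as a description. Calls against controls are printed beside the share over all transcripts, and nothing is read from them.

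The samples were livers of juvenile female brown trout (Salmo trutta), 1 library per fish, taken after 14 days in a flow-through exposure. Roundup, a commercial glyphosate formulation, was given at 0.01 (LR), 0.5 (MR) and 10 (HR) mg/L of glyphosate acid equivalent, and analytical glyphosate at 0.01 (LG) and 10 (HG) mg/L. Each of these 5 groups had 6 fish and was set against 12 control fish kept in water without herbicide. The paper formed these 12 by combining 2 control groups, and the labels do not tell which fish belonged to which. A middle glyphosate group of 3 fish was not analysed here. The fish of a treatment were kept in 2 tanks, and the labels do not tie a fish to its tank, so the effect of a tank and that of a treatment cannot be told apart.

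Reads on the listed transcripts ranged over 10223638 to 33291845 per fish, with a median of 17027085. Levels are given as CPM, the read count scaled to the size of the library after TMM normalisation over all 42 fish. The members of a gene were summed. Isoforms of a component share sequence and each read was assigned to a single hit, so the division of reads between isoforms is less certain than the sum. Transcript lengths are not in the count tables, and levels were therefore compared between fish and not between genes.

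A few libraries stood apart from the rest of their group over the whole transcriptome. The mean absolute difference in log2 CPM from the median of the other fish of the group, over 49081 transcripts, was 0.820 in LG fish 1, 0.783 in MR fish 1, 0.576 in LR fish 3, 0.554 in HR fish 3 and 0.536 in MR fish 4. In the other 37 fish it was 0.338 to 0.499. These 5 fish also had 5 of the 6 highest mknk1 levels, so the results are given with and without them. Hepatocyte markers, of which 8 of 9 were measured, summed to 54863 to 111515 CPM in exposed fish and 58899 to 83188 CPM in controls. Of the 5 fish that stood apart, LG fish 1 and MR fish 4 ranked 1 and 2 of 42 by this sum. LR fish 3, MR fish 1 and HR fish 3 ranked 5, 13 and 16. In a bulk liver sample, fewer cells of a type and less RNA per cell cannot be told apart.

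The transcripts of mknk2b were higher in most exposed fish than in controls. The shift was broadest in HR, where every fish lay above the control median and 5 of 6 lay above the highest control. It was smallest in HG. The order of the groups by median was HR, LR, LG, MR, HG and control, and every neighbouring pair in this order overlapped in range.

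In the 6 HR fish mknk2b was at 30.9, 34.5, 49.1, 42.9, 27.0 and 23.2 CPM. In the 12 control fish it ranged over 13.4 to 23.7 CPM, with a median of 17.5 CPM. Only HR fish 6 fell below the highest control, and the group averaged 34.6 ± 9.81 CPM, against 17.5 ± 2.99 CPM in controls (SD, n = 6 and 12). On the log2 scale HR was higher by 0.97 (SE 0.15). This stayed between 0.84 and 1.06 when any fish was left out, and it was 0.84 (SE 0.15) without HR fish 3.

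The 6 LR fish had mknk2b at 24.6, 12.1, 36.5, 33.4, 40.1 and 25.9 CPM. The spread was wide, since 5 LR fish were above the highest control and LR fish 2 was below the lowest. The mean was 28.8 ± 10.1 CPM in LR, against 17.5 ± 2.99 CPM in controls, a log2 fold change of 0.70 (SE 0.18) that was 0.63 without LR fish 3 and 0.86 without LR fish 2. MR fish had 66.3, 13.6, 22.3, 38.9, 18.2 and 25.9 CPM of mknk2b. Here 3 of 6 exceeded the highest control, and the highest were MR fish 1 and MR fish 4, both among the 5 libraries that stood apart. For MR this gave a log2 fold change of 0.81 (SE 0.23) with all fish and 0.18 (SE 0.17) without these 2.

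With glyphosate alone, mknk2b was at 49.4, 21.2, 32.1, 20.1, 32.3 and 23.3 CPM in LG fish. All 6 LG fish were above the control median and 3 were above the highest control. Against controls the log2 fold change was 0.75 (SE 0.17), or 0.55 (SE 0.15) without LG fish 1. HG fish had 12.4, 20.4, 35.2, 13.6, 36.7 and 14.7 CPM of mknk2b. The HG fish fell apart into 2 high fish, numbers 3 and 5, and 4 within or below the control range, so that the group median of 17.6 CPM lay beside the control median of 17.5 CPM. The log2 fold change in HG was 0.33 (SE 0.20), and it was 0.13 without HG fish 5.

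**Figure D1:**
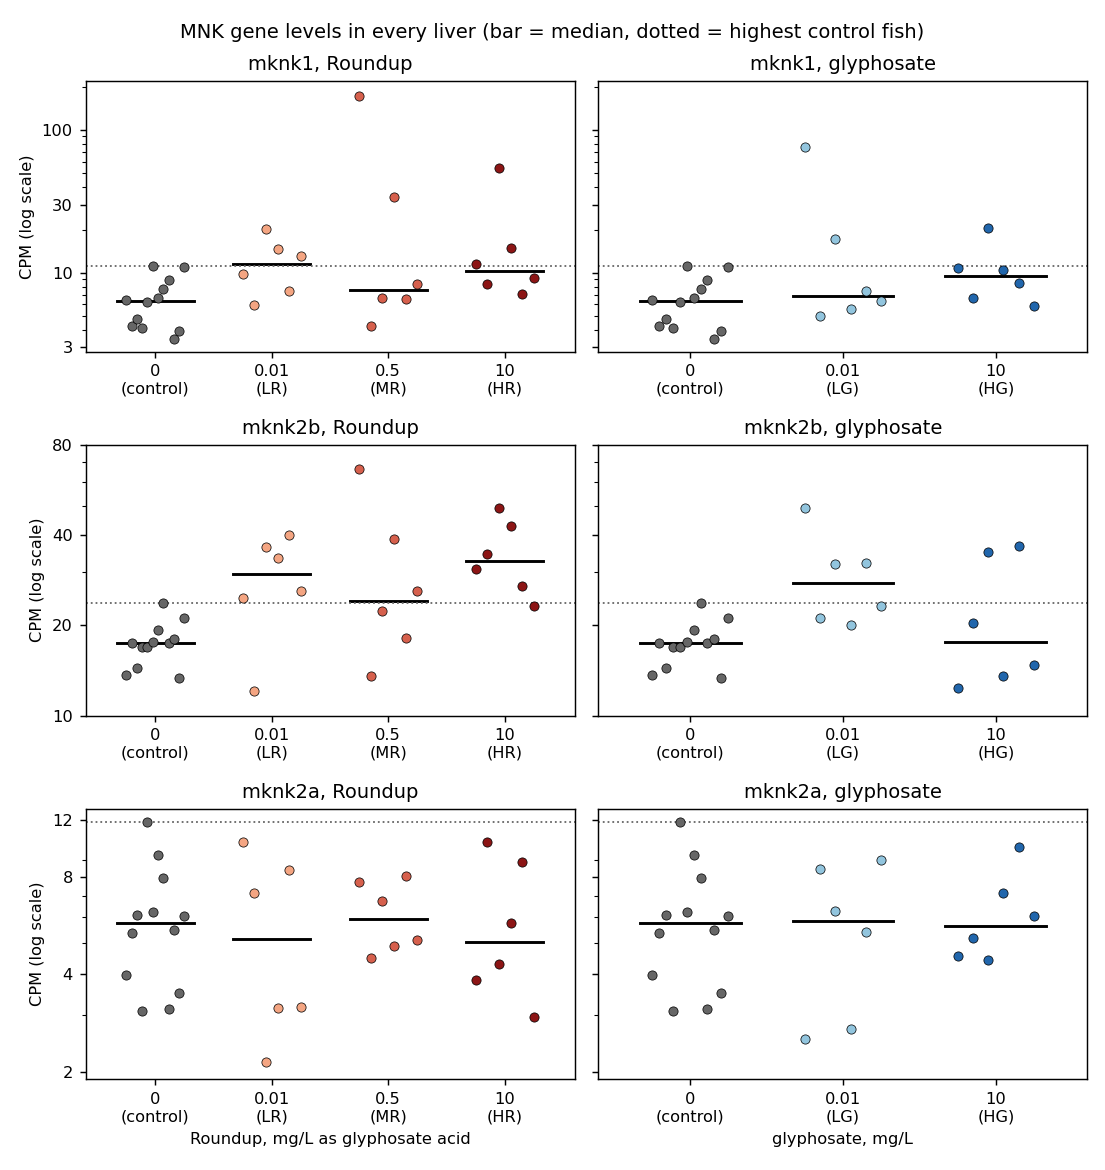
Level of each MNK gene in every fish (CPM, log scale) against nominal dose, with Roundup on the left, glyphosate on the right and the same 12 controls at dose 0 in both; points are fish, bars are medians and the dotted line is the highest control fish. In mknk2b 18 of 30 exposed fish lie above that line, in mknk1 11 of 30 and in mknk2a 0 of 30.

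For mknk1 the group means were set by a few fish. MR fish 1 had the highest level, 173 CPM. LG fish 1 followed with 76.1 CPM, then HR fish 3 with 54.3 CPM and MR fish 4 with 33.9 CPM. No control exceeded 11.2 CPM, and the 12 controls spanned 3.43 to 11.2 CPM with a median of 6.38 CPM. By mean the groups ran MR, LG, HR, LR, HG and control, whereas by median they ran LR, HR, HG, MR, LG and control. Neighbouring groups overlapped in range in both orders.

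In MR fish mknk1 was at 173, 4.23, 6.69, 33.9, 6.53 and 8.38 CPM, so 4 of 6 fish stayed within the control range. The mean was 38.8 ± 66.8 CPM in MR, against 6.57 ± 2.71 CPM in controls (SD, n = 6 and 12). The log2 fold change in MR was 2.54 (SE 0.56) with all fish, 0.86 without MR fish 1, and -0.03 (SE 0.28) without MR fish 1 and 4. The higher mean in MR therefore rested on those 2 fish.

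HR fish had mknk1 at 11.5, 8.4, 54.3, 15.0, 7.11 and 9.19 CPM. All 6 were above the control median, 3 of them above the highest control, and HR fish 3 stood far above the next. This gave a log2 fold change of 1.41 (SE 0.35), or 0.61 (SE 0.25) without HR fish 3. In LR mknk1 was at 9.85, 5.91, 20.4, 14.8, 7.44 and 13.2 CPM. No single LR fish dominated, with 5 of 6 above the control median and 3 above the highest control, and the log2 fold change of 0.84 (SE 0.26) was 0.63 (SE 0.26) without LR fish 3.

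LG fish had mknk1 at 76.1, 4.95, 17.3, 5.58, 7.44 and 6.36 CPM. Fish 1 and 3 were above every control and the other 4 lay near the control median. The log2 fold change of 1.55 (SE 0.45) dropped to 0.34 (SE 0.29) without LG fish 1. HG fish had 10.8, 6.65, 20.5, 10.4, 8.52 and 5.90 CPM of mknk1, with only HG fish 3 above the highest control. The log2 fold change in HG was 0.67 (SE 0.27), and 0.35 without HG fish 3.

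The third gene, mknk2a, showed no such shift. Roundup fish were at 2.14 to 10.3 CPM (LR), 4.51 to 8.07 CPM (MR) and 2.96 to 10.2 CPM (HR), and glyphosate fish at 2.53 to 9.05 CPM (LG) and 4.45 to 9.93 CPM (HG), against 3.08 to 11.8 CPM in controls. The highest of the 42 fish was a control, and in each exposed group 3 of 6 fish were above the control median of 5.77 CPM. Log2 fold changes lay between -0.08 and 0.03, with standard errors of 0.25 to 0.32. The 95% intervals of the quasi-likelihood fit ran from -0.75 to 0.59, so smaller differences were not resolved.

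**Figure D2:**
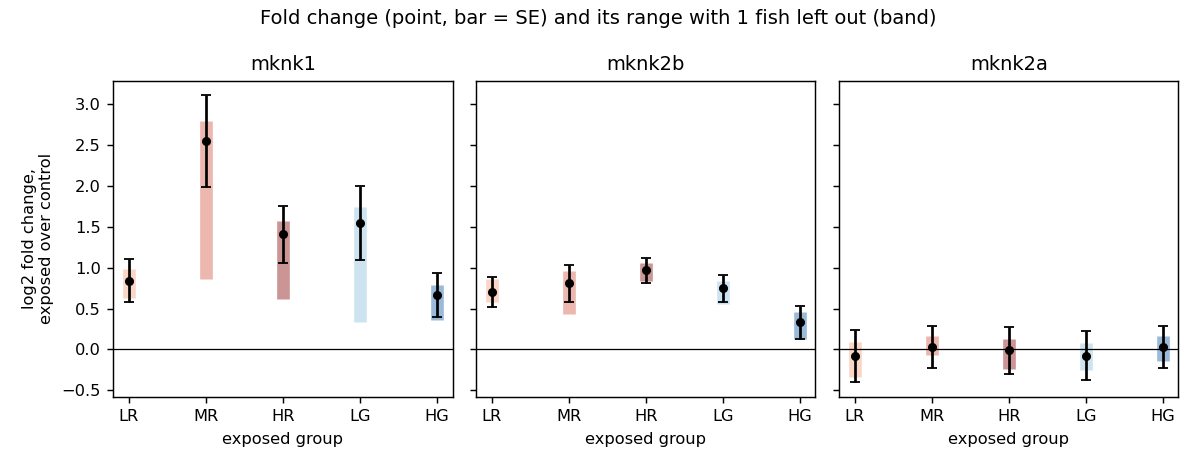
Log2 fold change of each gene's summed count for the 5 exposed groups over the same 12 controls (points, bars are standard errors) and its range when any 1 fish is left out (bands). The bands are wide for mknk1, from 0.86 to 2.79 in MR and from 0.34 to 1.75 in LG, and narrow for mknk2b in HR, from 0.84 to 1.06.

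All 5 comparisons share the 12 controls, so a chance deviation of the controls would enter each of them. Among the controls the SD of log2 CPM of the single mknk2b transcripts was 0.25 (comp125517_c0_seq1), 0.24 (comp125517_c0_seq16) and 0.33 (comp125517_c0_seq19), and 86.1%, 87.9% and 65.3% of 49081 transcripts varied more, with a median SD of 0.39. The mknk1 transcripts comp118684_c3_seq1 and comp118684_c5_seq1 and the mknk2a transcript comp107370_c0_seq1 had SDs of 0.63, 0.55 and 0.60, and 86.7%, 79.9% and 84.8% of transcripts varied less. The members were not matched to the other transcripts by level, so read depth may enter these ranks. The same controls also entered the contrasts that chose the family. Exposed fish varied more in the summed level of mknk2b, with an SD of log2 CPM of 0.40 among HR fish, 0.49 among LG fish, 0.62 among LR fish, 0.69 among HG fish and 0.81 among MR fish, each above the 0.24 of the controls. The libraries that stood apart are included. Over the whole transcriptome the median departure of a fish from its group was also larger, 0.41 (LG) to 0.45 (HG), against 0.38 in the larger control group. A wider spread particular to mknk2b was not tested.

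The transcripts of a gene gave similar fold changes. The 3 mknk2b isoforms are of 1 component and share sequence, and each read went to a single hit. Their values are therefore not independent. In HR the log2 fold changes of the mknk2b transcripts were 1.06 (SE 0.16) for comp125517_c0_seq1, 0.87 (SE 0.15) for comp125517_c0_seq16 and 0.97 (SE 0.18) for comp125517_c0_seq19. Their shares of the summed CPM over the 42 fish averaged 36.0 ± 3.64%, 34.4 ± 3.62% and 29.6 ± 3.02% (SD). The mean share of comp125517_c0_seq1 ran from 33.1 ± 4.41% in MR to 38.5 ± 4.28% in HG, against 35.2 ± 3.84% in controls (SD), so the groups overlapped in it. For mknk1, comp118684_c3_seq1 made up 58.8 ± 6.39% of the sum, with 45.5 to 75.6% in single fish. In MR fish 1 this transcript was at 98.0 CPM and comp118684_c5_seq1 at 75.3 CPM, against at most 7.14 and 4.71 CPM in controls, so the high level of that fish was seen in both components of mknk1.

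**Figure D3:**
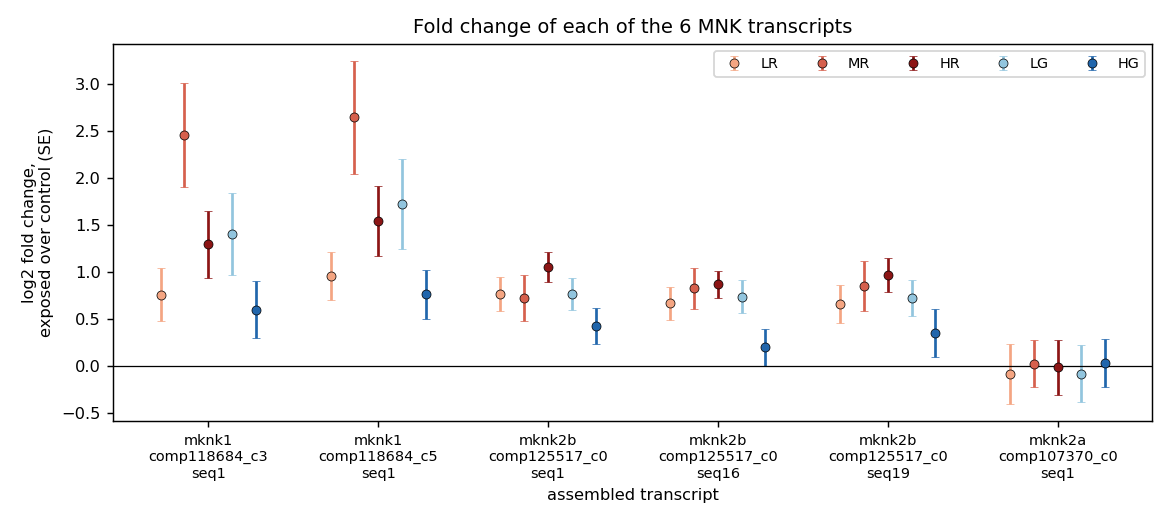
Log2 fold change over controls of each of the 6 assembled MNK transcripts (points, bars are standard errors), coloured by exposed group. The 2 mknk1 transcripts and the 3 mknk2b transcripts repeat the pattern of their gene, from 2.46 and 2.65 for mknk1 in MR to 0.20 for comp125517_c0_seq16 in HG, and mknk2a stays near 0.

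Across all transcripts, edgeR's quasi-likelihood test at a false discovery rate below 0.1 called few, and the members among them depended on the test. In HR it called 2 of the 6 members, comp125517_c0_seq1 and comp125517_c0_seq16 of mknk2b, both higher, where 0.00480% of 62556 transcripts were called higher. No members were called in the other comparisons, where 0.0161% of transcripts were called higher for LR, 0% for MR, 0% for LG and 0.00157% for HG. At an unadjusted p below 0.05 the members, all higher, numbered 5 for LR (3.92% of all transcripts were higher at this p), 5 for MR (5.18%), 5 for HR (4.08%), 5 for LG (4.49%) and 2 for HG (3.22%), and none of these was mknk2a. These contrasts chose the family, and nothing is read from the counts.

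edgeR's exact test, with tagwise dispersions, called 1 member for LR (0.101% of transcripts called higher), 3 for MR (0.756%), 5 for HR (0.526%), 3 for LG (0.383%) and 0 for HG (0.0488%). With DESeq2 the members called were 1 (0.121%), 3 (0.493%), 4 (0.174%), 1 (0.0299%) and 0 (0.0220%) in the same order. All members called were higher in exposed fish. The 2 calls of the quasi-likelihood test in HR were lost without HR fish 1, 3 or 4, and without any of 9 of the 12 controls, and in each of these fits 0 transcripts were called at all. Without HR fish 5, 4 members were called among 74 transcripts, without HR fish 6, 3 among 132, and without control fish 8, 3 among 6. Without control fish 2 or 4, 1 member was called, among 2 and 4 transcripts. In the other groups 2 members were called without LR fish 2, among 21 transcripts, and without MR fish 2, 3 or 5, among 113, 147 and 161.

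Whether Roundup and glyphosate differed at the same nominal dose, and whether doses differed, was tested directly between exposed groups, a contrast that did not choose the genes, although the same exposed fish entered their choice. Over 6 comparisons, 0 of the 6 members were called in any by the quasi-likelihood test, edgeR's exact test or DESeq2. The quasi-likelihood test called 0% of transcripts in each, with 1527 to 3498 transcripts at an unadjusted p below 0.05. Among those were 2 members for HR over HG, both higher, where 3.22% of all transcripts were higher at this p. In the other comparisons there were 0 members. Of all transcripts the exact test called 0.0213% for LR over LG, 0.0114% for HR over HG, 0.00165% for MR over LR, 0% for HR over LR, 0.00985% for HR over MR and 0.0390% for HG over LG, and DESeq2 0%, 0.0507%, 0.00165%, 0%, 0.00820% and 0.0406%. At 10 mg/L, mknk2b averaged 34.6 ± 9.81 CPM in HR and 22.2 ± 11.0 CPM in HG (SD, n = 6 each), a log2 fold change of 0.64 with a 95% interval of 0.02 to 1.26 and an adjusted p of 0.874 over all transcripts (edgeR). HR fish were at 23.2 to 49.1 CPM and HG fish at 12.4 to 36.7 CPM, so the groups overlapped. Leucocyte markers differed in the same direction. Their summed level was 156 to 299 CPM in HR fish, with a median of 217 CPM, and 131 to 220 CPM in HG fish, with a median of 154 CPM. All 15 of their transcripts had a positive log2 fold change in HR over HG, with a median of 0.45, against -0.00356 over all transcripts. None was called by the quasi-likelihood or the exact test and 1 was called by DESeq2, while 7 were higher at an unadjusted p below 0.05, where 3.22% of all transcripts were. Their part in the MNK difference was not tested. For mknk1 the difference between HR and HG was 0.74 (-0.27 to 1.75). Without HR fish 3 the log2 fold changes of HR over HG were 0.51 for mknk2b and -0.05 for mknk1.

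At 0.01 mg/L mknk2b averaged 28.8 ± 10.1 CPM in LR and 29.7 ± 11.0 CPM in LG (SD, n = 6 each). Their log2 fold change of -0.05 had an interval of -0.66 to 0.56. That of mknk1, -0.72, had an interval of -2.06 to 0.62. Without LG fish 1 the values were 0.15 for mknk2b and 0.51 for mknk1, and without LR fish 3 they were -0.13 and -0.94. The interval of mknk1 includes differences as large as those from controls (0.84 in LR and 1.55 in LG). That of mknk2b reaches 0.66 in size. The gene differed from controls by 0.70 (LR) and 0.75 (LG), or by 0.63 without LR fish 3 and 0.55 without LG fish 1. Those contrasts chose the gene, so the interval is not read as too narrow for a difference of that size. Differences between the compounds were not resolved at this dose.

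Between doses of Roundup, the log2 fold change of mknk2b was 0.10 (-0.68 to 0.88) in MR over LR, 0.27 (-0.28 to 0.83) in HR over LR and 0.17 (-0.55 to 0.89) in HR over MR. For mknk1 the corresponding values were 1.70 (-0.05 to 3.45), 0.57 (-0.44 to 1.59) and -1.13 (-3.01 to 0.75). These hung on single fish. Without MR fish 1, MR over LR was 0.01 and HR over MR 0.56 for mknk1, and -0.27 and 0.54 for mknk2b. Without HR fish 3, HR over LR was -0.22 and HR over MR -1.93 for mknk1. Leaving out MR fish 4 or LR fish 3 did not change the signs for mknk1. Between doses of glyphosate, HG over LG gave -0.42 (-1.09 to 0.25) for mknk2b and -0.90 (-2.24 to 0.44) for mknk1. Without LG fish 1 these were -0.22 for mknk2b and 0.33 for mknk1. The adjusted p in edgeR was 0.874 or more for all 18 gene and group combinations, so no order of the doses was resolved. For mknk2a the 6 log2 fold changes lay between -0.05 and 0.11. Cell type markers also differed between doses. In HG over LG, 0 of 15 leucocyte marker transcripts had a positive log2 fold change (median -0.52). The 23 stellate cell and fibroblast marker transcripts came from 7 components and are not independent. Of these, 0 were positive in MR over LR (median -0.93) and 23 in HR over MR (median 0.65). None was called by the quasi-likelihood or the exact test, and DESeq2 called 1, in HR over MR (0.00820% of transcripts). Their part in the MNK differences was not tested.

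**Figure D4:**
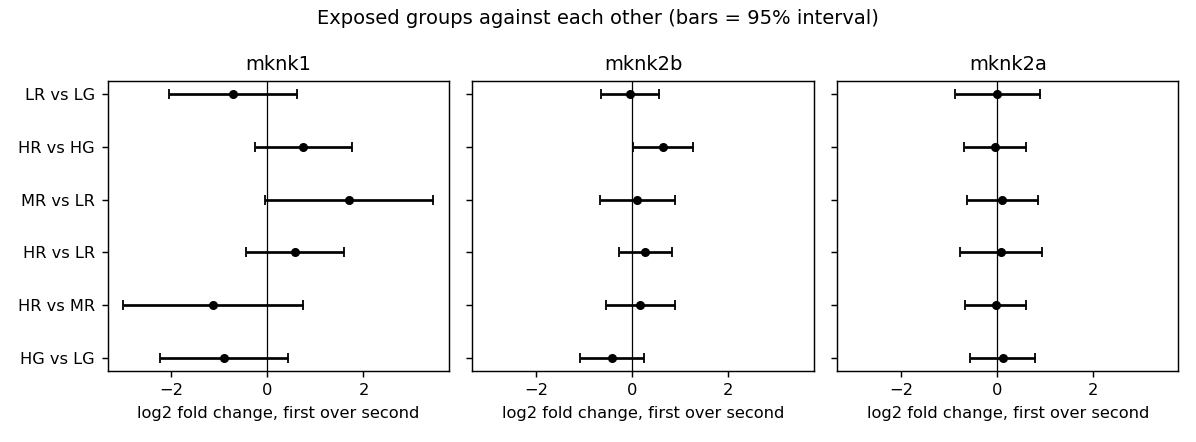
Log2 fold changes between exposed groups (first group over second) for the summed counts of each gene, with 95% intervals of the quasi-likelihood fit, 6 fish per group. All intervals include 0 except that of mknk2b in HR over HG (0.02 to 1.26), which was not called after adjustment over all transcripts.

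In MR, LG and HR, fish with a high level of mknk1 tended to have a high level of mknk2b, whereas in HG the ranks of the genes were not aligned. In MR the Pearson correlation of their log2 CPM was 0.97 over 6 fish, in LG 0.92, in HR 0.80, in LR 0.60 and in HG 0.39. Spearman's rho was 1 in MR, 0.89 in LG, 0.71 in HR, 0.43 in LR and -0.09 in HG. Without the 2 fish farthest from the mknk1 median of the group, Pearson's r was 0.96, 0.89, 0.15, -0.41 and -0.56 in the same order, each over 4 fish. The relation in HR and LR thus rested on those fish, and so did the positive Pearson r in HG, where the ranks showed none. The points within a group share its tanks and, for both genes, the same library and depth. In the 12 controls alone, the only set tested, r was 0.46 (permutation p = 0.137) and Spearman's rho 0.50 (permutation p = 0.104). The permutations took the 12 controls as 1 set, since the labels do not separate the combined control groups. A relation between the genes was thus not resolved in unexposed livers, and r was 0.61 without the 2 extreme fish. The gene mknk2a gave no common sign with mknk1, with r from -0.85 in LR to 0.32 in MR. With mknk2b its r ran from -0.43 in LG to 0.30 in MR over the exposed groups. In controls r of mknk2a with mknk2b was 0.45, untested, close to the 0.46 of mknk1 with mknk2b.

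**Figure D5:**
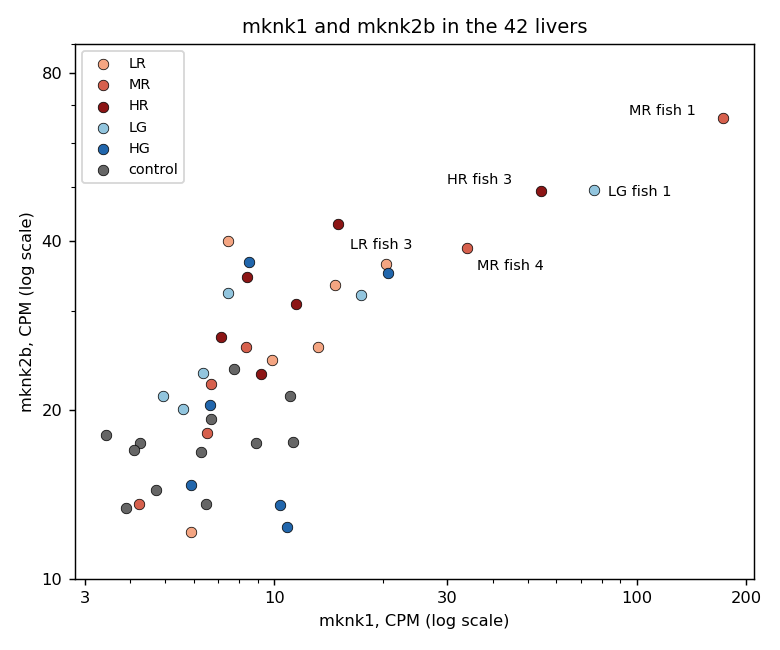
Level of mknk2b against mknk1 (CPM, both axes logarithmic) in all 42 fish, coloured by group, with the 5 libraries that stood apart over the whole transcriptome named. Of these, MR fish 1, at 173 and 66.3 CPM, is the highest in both genes, followed in both by LG fish 1 and HR fish 3.

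Other cell types were followed by summed marker CPM, and none of the measured markers was at 0 throughout a group. Markers of stellate cells and fibroblasts, 5 of 6 measured, summed to 172 to 342 CPM in MR fish, against 352 to 539 CPM in controls. Their 23 transcripts came from 7 components and are not independent. In that comparison 0 of their 23 transcripts were called by the quasi-likelihood test, 8 were called lower by the exact test (0.236% of all transcripts) and 10 by DESeq2 (0.250%), and 23 were lower at an unadjusted p below 0.05 (3.75%). Red cell markers, 3 of 6 measured, reached 478 to 919 CPM in MR fish, against 264 to 704 CPM in controls, with the highest value in MR fish 1. Their part in the MNK levels of MR fish was not tested. In HR fish the stellate cell and fibroblast markers summed to 350 to 482 CPM, leucocyte markers (7 of 7 measured) to 156 to 299 CPM and endothelial markers (3 of 4) to 48.9 to 56.7 CPM, against 352 to 539, 130 to 344 and 44.7 to 64.3 CPM in controls. Markers of exocrine pancreas, 2 of 9 measured in all fish, were at 0 to 40.2 CPM in exposed fish and 0.0899 to 56.3 CPM in controls.

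The rest of the pathway was read from lists of kinases above MNK, other kinases activated by ERK and p38, the cap-binding complex, and other MNK substrates. The quasi-likelihood test called 0 transcripts of these lists in any of the 5 comparisons with controls. By the exact test 1 transcript was called for LR, 7 for MR and 5 for HR, and by DESeq2 1, 3 and 1, all of them higher, with 0 for LG and HG by either. Of all transcripts the exact test called 0.101% higher for LR, 0.756% for MR and 0.526% for HR, and DESeq2 0.121%, 0.493% and 0.174%. Apart from 1 transcript of the scaffold gene eif4g1a in LR and 1 each of the p38 kinases mapk14a and mapk14b in MR, these were isoforms of eif4g2a, a relative of eIF4G that in mammals lacks the eIF4E-binding part, all from 1 component. The genes eif4g2a and mapk14a were named after their values were seen. The cap-binding list had the most transcripts, 134 to 142 for 15 of 18 genes. These came from 17 or 18 components, and up to 35 of them were isoforms of eif4g2a, so they are not independent. At an unadjusted p below 0.05, 15 were higher and 3 lower for LR, 40 and 7 for MR, 38 and 3 for HR, 22 and 1 for LG, and 7 and 5 for HG. The higher ones belonged to 3 components for LR, 7 for MR, 5 for HR, 6 for LG and 4 for HG. Of all transcripts, 3.92% were higher and 3.83% lower at this p for LR, 5.18% and 3.75% for MR, 4.08% and 3.26% for HR, 4.49% and 2.24% for LG, and 3.22% and 3.26% for HG. Its median log2 fold changes were 0.13 (LR), 0.25 (MR), 0.16 (HR), 0.20 (LG) and 0.11 (HG), against -0.00493 to 0.00907 over all transcripts tested.

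Within these lists the direct partners of MNK differed by gene and transcript. The most abundant transcript of eIF4E, the MNK substrate, was that of eif4eb and averaged 17.1 ± 2.08 CPM in HR and 15.7 ± 3.21 CPM in controls, with log2 fold changes of -0.07 to 0.15 over the 5 groups. That of eif4e1c, another eIF4E gene, gave log2 fold changes of 0.31 (HG) to 0.87 (LG). For eif4e3 they were -0.14 (LG) to 0.06 (MR). Neither was called. The most abundant transcript of eIF4G1, the docking scaffold, was of eif4g1a and gave log2 fold changes of -0.42 in HG to 0.05 in LG, none called. Another eif4g1a transcript, the 1 called in LR, was higher there by 0.99 (exact test). The ERK kinase mapk3 gave -0.03 to 0.18. Its transcript may share reads with others of its component, so these values are uncertain.

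The p38 kinase mapk14b, an activator of MNK, differed more, although the quasi-likelihood test did not call it. Its most abundant transcript averaged 29.7 ± 39.5 CPM in MR, against 11.1 ± 3.24 CPM in controls (SD, n = 6 and 12). Its log2 fold changes were 0.42 (LR), 1.41 (MR), 0.80 (HR), 0.66 (LG) and 0.07 (HG), with adjusted p values of 0.753, 0.313, 0.507, 0.621 and 0.977 (edgeR). The median was 8.69 CPM in MR, against 10.4 CPM in controls, and the highest MR fish was at 106 CPM, so the mean of MR rested on few fish. The paralog mapk14a, named after its values were seen, was at a low level, with a mean of 1.13 CPM in controls. Its log2 fold changes were 0.26 (LR), 1.54 (MR), 1.18 (HR), 1.10 (LG) and 0.03 (HG). In MR its median was 1.25 CPM and its highest fish was at 11.7 CPM.

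The transcripts that followed the MNK genes most closely over the 42 fish were picked by Pearson correlation of log2 CPM. They are a description, since a few fish with extreme values and a shared library set much of it. For mknk1 they were annotated as eukaryotic translation initiation factor 1B (r = 0.92), si:ch211-154o6.6 (0.91), annexin A11a (0.90), syndecan 4 (0.89) and methionine adenosyltransferase II alpha a (0.88). Over the 12 controls alone, the same transcripts had r of 0.55, 0.44, 0.27, -0.03 and -0.32 with mknk1. For mknk2b they were slingshot homolog 2b, by 2 components (0.85 and 0.81), ArfGAP with FG repeats 1b (0.81), serine/threonine kinase 40 (0.79), cytidine deaminase (0.78) and homeodomain leucine zipper gene (0.77). In controls alone, r with mknk2b was 0.11 and 0.10, 0.13, 0.15, 0.66 and 0.42. No transcript was among the closest for both genes.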

How the data were processed

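The counts are whole numbers of reads per transcript and fish that the authors made from 100 bp paired reads (TruSeq RNA libraries, not strand-specific) by mapping to their own Trinity assembly with Bowtie2 2.1.0, reporting 1 hit per read, and counting with SAMtools 0.1.18, without scaling. The 5 deposited tables, 1 per treatment with the same 12 controls, list the transcripts the authors retained, and 1 repeated header line was left out. Their columns of log2 fold change, mean log2 CPM, p-value, FDR value and call score, also deposited by the authors, were not used.

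Transcripts detected (1 read or more) in 6 or more of the fish compared were tested in R 4.3.3 with edgeR 4.0.16 (TMM, quasi-likelihood test, 2-sided, no covariates), adjusted by Benjamini-Hochberg over all transcripts, with calls below 0.1. Fold changes are those of the first-named group over the second. log2 CPM has a prior count of 2. The control correlation was tested with 100000 permutations. Scripts were tested on simulated data. Alternatives were RLE scaling, other low-count filters, edgeR's exact test (prior df 10), DESeq2 1.42.0, component sums, a replicate block, 1 fit over all 42 fish and leaving out fish. A fold change without a single fish keeps the dispersion and scaling of the full fit.

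All members are described. Pathway genes are named where called, otherwise by the most expressed transcript of eif4e, eif4g1, mapk3 and mapk14, and 1 further gene of this rule is not reported here. Like genes are the 5 annotated genes with the highest r. The tables give zebrafish identifiers and descriptions, and list symbols were matched through these. Members and lists were chosen with earlier results of these data known. P-values rest on the spread between fish and do not cover that between tanks, since the labels do not tie a fish to its tank.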

Additional observations from a re-analysis of the deposited data

Results flagged for a closer look

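In each exposed group of 6 fish, the gap between the most extreme fish and its nearest neighbour was set against the range of the group for each of the 3 genes (Dixon's 95% criterion), a check that chance alone passes in about 1 of 20 groups. That rate is for genes picked without regard to their values, and mknk1 and mknk2b were picked because they were high in these same fish. It also assumes normally distributed values, whereas the check was run on CPM and not on log2 CPM. On that scale a high fish passes more easily. The count is therefore a description only. It was passed in 4 of 15 groups, all for mknk1 and all by a high fish. MR fish 1 had 173 CPM, with the next MR fish at 33.9 CPM. LG fish 1 had 76.1 CPM, with the next at 17.3 CPM, and HR fish 3 had 54.3 CPM, with the next at 15.0 CPM. HG fish 3 had 20.5 CPM, with the next at 10.8 CPM. MR fish 1, LG fish 1 and HR fish 3 were also among the 5 libraries farthest from their groups over all transcripts, and HG fish 3 ranked 8 of 42 by that measure. No group passed it for mknk2b or mknk2a, although the same MR, LG and HR fish were the highest of their groups in mknk2b.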

How the results depend on the processing

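The number of MNK transcripts called against controls depended on the test and on single fish. In LR it was 0 by the quasi-likelihood test and 1 by the exact test and by DESeq2, in MR 0 and then 3 and 3, in HR 2 and then 5 and 4, and in LG 0 and then 3 and 1; in HG it was 0 by all 3. Over all transcripts the quasi-likelihood test called 13, 1, 4, 0 and 1 in LR, MR, HR, LG and HG, the exact test 101, 622, 420, 283 and 35, and DESeq2 155, 466, 172, 32 and 22. In HR 0 members were called with counts summed per component, with all 42 fish fitted together, and without the 5 fish farthest from their groups. In each of these settings 0 transcripts or components were called at all for HR. Of those 5 fish only HR fish 3 was in this comparison. With RLE scaling or other filters 2 members were called, among 4 transcripts. With 1 fish left out, the count was 0 to 2 in LR, 0 to 2 in MR, 0 to 4 in HR, 0 in LG and 0 in HG. Leaving out controls, and leaving out the 5 fish together, were chosen after seeing the data. Between exposed groups the count was 0 under all 114 alternatives. The cause of these shifts was not tested.

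Replicate numbers did not pair the fish. Same-numbered fish of the groups compared had correlations of their deviations from the group means between -0.42 and 0.50, with at most 4 of 6 pairs above 0.1 in any of 11 comparisons, and each fish never correlated best with its own number throughout a comparison. With the replicate block the number of members called in HR was 0 instead of 2, and it stayed at 0 elsewhere. Control fish 7 to 12 share their number with no exposed fish, so in this fit they added nothing to the difference from controls. The change in calls therefore does not bear on pairing. Over all transcripts this fit called 3 of 62556 in HR, 2 in HG and 0 in LR, MR and LG.

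Without MR fish 1 the mknk1 log2 fold change in MR was 0.86 instead of 2.54, and -0.03 without MR fish 4 as well. Without LG fish 1 that in LG was 0.34 instead of 1.55. The mknk2b log2 fold changes against controls stayed positive with RLE scaling, with each of the 3 transcripts alone, with any 1 fish left out and without the 5 fish, the alternatives run for it. These contrasts chose the gene and the 3 transcripts share sequence, so the kept sign is a description only. The lowest values were small, 0.18 (SE 0.17) in MR without MR fish 1 and 4, and 0.13 in HG without HG fish 5. The control correlation of mknk1 and mknk2b was 0.28 with the most expressed transcripts and 0.34 to 0.55 with 1 control left out, with permutation p values of 0.0804 to 0.394 over these alternatives. Groups of 6 fish limit the precision, as the intervals show.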
